A study of Mus musculus with 20 samples.

Results

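The Eph receptors are transmembrane receptor tyrosine kinases that bind ephrins on the surface of neighbouring cells. The 9 genes described here are *Epha3*, *Epha4*, *Epha5*, *Epha6*, *Epha7*, *Ephb1*, *Ephb2*, *Ephb3* and *Ephb4*, out of 22367 protein-coding genes in the annotation. They were taken by name, and each was given a window of its gene body plus 2 kb on each side in NCBIM37 (mm9). A window was described by the peaks of 5-formylcytosine (5fC) that overlap it and by the bases under those peaks.

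5fC was tagged chemically, pulled down and sequenced from the heart, hindbrain, carcass and liver of mouse embryos at E11.5. WT embryos were set beside *Tdg* null embryos, in which a neomycin-resistance cassette stands in place of the part of *Tdg* that encodes its catalytic domain, in all cells of the embryo. Hindbrain came from 4 WT and 4 *Tdg* null embryos, with 1 of each genotype from litters A, O, Z and Q. Heart, liver and carcass came from 4 further embryos, whose litter labels, pair a and pair b, each join 1 null and 1 WT embryo, so that these tissues share embryos and their libraries are not independent. All groups are otherwise untreated littermates of heterozygous crosses. The null liver of pair b, with a peak at 0.291% of coding genes and at none of the 9, was set apart, which leaves 19 libraries. The study left out a null liver for its quality without naming it. In whole tissue, more cells with 5fC at a site and more 5fC per cell cannot be told apart.

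5fC arises when TET enzymes oxidise 5-methylcytosine, mostly at CpG dinucleotides, and TDG removes it by base excision repair. Eph receptors fall into an A class, which mostly binds ephrins tethered to the membrane by a lipid anchor, and a B class, which mostly binds transmembrane ephrins. Both partners signal into their own cell, and the resulting repulsion or adhesion is known for keeping hindbrain segments apart, for guiding axons and for separating arterial from venous vessels.

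A peak list does not hold read counts, so the depth of each library is unknown here and a base outside a peak is not shown to lack 5fC. The 9 null libraries held 101344 to 254319 peaks, covering 2.68% to 8.09% of the ungapped genome. The 10 WT libraries held 1563 to 42013 peaks, covering 0.0349% to 0.939%. Null libraries thus had more of the whole genome under peaks, and values are also given as relative coverage, the percent of a window under peaks divided by the percent of the genome under peaks in the same library. A relative coverage of 1 is the genome's level. Null heart stood apart on the heart marker list, whose 8 genes had a median relative coverage of 5.73 and 8.32 in the null hearts against 0.453 to 1.17 in null hindbrain and carcass, and 2.90 in null liver. The 8 hindbrain marker genes did not set hindbrain apart from heart and carcass, with peaks at 3 of 8 in every null hindbrain and at 2 to 4 of 8 in null heart and carcass. Null liver had peaks at 1 of 8. Liver markers had peaks at 6 of 6 genes in null liver and at 4 or 5 of 6 in the other null libraries, and the 5 erythroid genes had peaks at 3 of 5 in the null hearts and at 1 or 2 of 5 elsewhere in null tissue. *Tdg* itself had 0 to 5 peaks in null libraries and 0 or 1 in WT libraries; peak positions do not show whether its coding sequence was deleted.

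Every Eph receptor gene was covered more in null than in WT hindbrain. The 9 windows together were under peaks over 4.29% ± 0.743 (SD, n = 4) of their bases in null hindbrain and over 0.314% ± 0.372 (SD, n = 4) in WT hindbrain. The WT hindbrain of litter Q, at 0.849%, carried much of that mean, with litters A, O and Z at 0.0682%, 0.284% and 0.0531%. All 9 windows held a peak in each null hindbrain, whereas 2, 4, 8 and 1 of them did in the WT hindbrains of litters A, O, Q and Z. By limma on log2(percent of window + 0.1), 9 of 9 rose, in a comparison where 56.1% of all genes were called higher and 0.0224% lower. With the litter as a replicate block the call of *Ephb1* was lost, and 45.2% of all genes were called higher. The 5202 genes with windows of at least 50 kb, to which 7 of the 9 belong, were also fitted and adjusted on their own. That fit called 90.8% of them higher, and 7 of these 7. The median log2 difference was 4.30 over the 9 genes and 3.56 over all genes, and the order turned among windows of at least 50 kb, with 4.04 over the 7 Eph receptor genes and 4.33 over all. The sizes depend on the pseudocount: with 1 in place of 0.1 the 9 differences were 0.63 to 3.34, all still called, and the median over all genes was 1.44. For each of the 9 genes all null values lay above all WT values, as they did for 48.8% of all genes and for 86.6% of those with windows of at least 50 kb. The exact permutation test of 4 against 4 gave p = 0.0286 for each, the smallest it allows, and adjusted over all genes it called none (adjusted p = 0.0585). Divided by the genome's coverage, 3 of the 9 were called higher (*Epha5*, *Epha6* and *Ephb3*), against 31.4% of all genes, and *Epha3* had a log2 difference of -1.89 (adjusted p = 0.0717), which became 1.85 (adjusted p = 0.248) when the peaks on 1 simple repeat were left out.

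**Figure D1:**
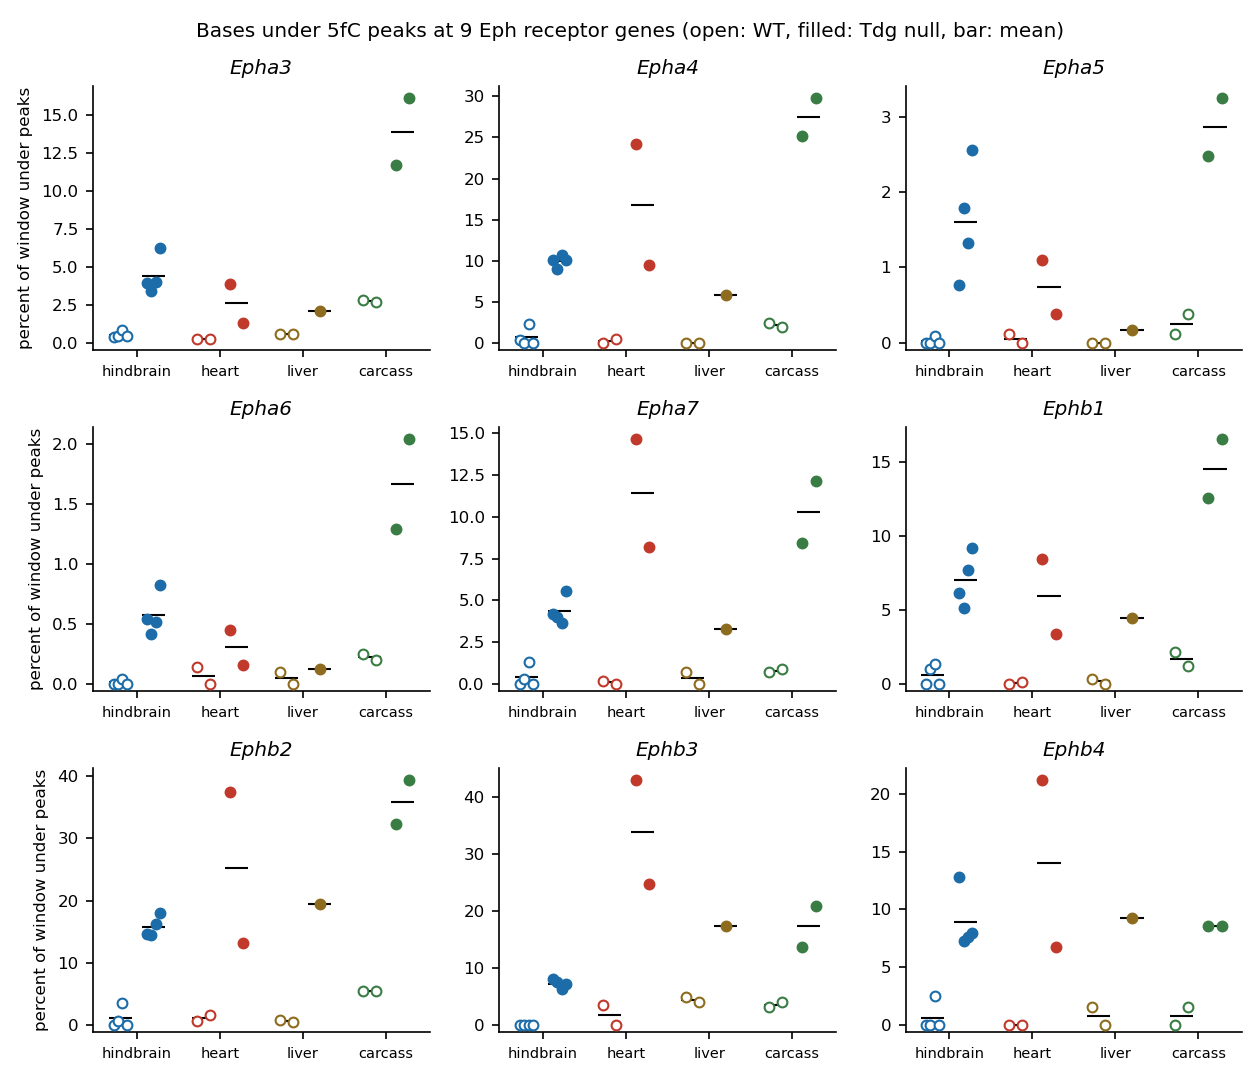
Percent of each Eph receptor window under 5fC peaks (vertical axis, a scale for each gene) in 19 libraries, by tissue, with WT libraries as open points, *Tdg* null libraries as filled points and the mean of each group as a bar. In hindbrain the null points lie above the WT points for all 9 genes, and the mean of null carcass is the highest for *Epha3*, *Epha4*, *Epha5*, *Epha6*, *Ephb1* and *Ephb2*.

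*Epha4*, whose receptor is known for setting borders between alternate hindbrain segments, lies on chromosome 1 (chr1:77363760-77511663, minus strand) in a window of 151.904 kb. Its window was covered over 10.1%, 8.93%, 10.7% and 10.1% in the null hindbrains of litters A, O, Q and Z, and over 0.329%, 0%, 2.24% and 0% in their WT littermates. The 4 null values lay close together and the WT value of litter Q stood above the other WT values. The log2 difference was 4.99 ± 1.05 (SE), with an adjusted p of 0.00665. In null heart the coverage was 24.2% and 9.41% for pairs a and b, in null carcass 25.2% and 29.8%, and in the null liver 5.86%. The WT hearts had 0% and 0.461%, the WT carcasses 2.37% and 1.97%, and both WT livers 0%.

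No library had a peak within 1 kb of the *Epha4* gene start, although 1947 of the bases in that range lie in CpG islands. The 200 bases before the gene start (chr1:77511664-77511863, minus strand, NCBIM37) are shown because they hold 12 CpG, in capitals, and no peak. Set beside them are 300 bases from the middle of a stretch that was under peaks of both null hearts and of no other null tissue (chr1:77367501-77367800, plus strand), in an intron 144 kb into the gene, with 7 CpG.
Epha4 before the gene start: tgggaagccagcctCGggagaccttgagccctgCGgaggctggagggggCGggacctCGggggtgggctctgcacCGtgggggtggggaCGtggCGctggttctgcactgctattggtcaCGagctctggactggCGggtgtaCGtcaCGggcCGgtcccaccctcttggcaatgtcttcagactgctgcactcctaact
Epha4 null heart only: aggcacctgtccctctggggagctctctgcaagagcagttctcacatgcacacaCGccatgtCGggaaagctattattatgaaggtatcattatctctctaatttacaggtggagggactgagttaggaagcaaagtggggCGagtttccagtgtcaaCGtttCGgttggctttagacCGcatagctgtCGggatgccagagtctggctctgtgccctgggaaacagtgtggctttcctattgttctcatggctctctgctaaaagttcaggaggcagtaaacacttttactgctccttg

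*Epha7*, which encodes an EphA receptor of the developing nervous system, lies on chromosome 4 (chr4:28740281-28894649, plus strand). In null hindbrain its window was covered over 4.17%, 3.98%, 3.66% and 5.56% in the same order of litters. The WT hindbrains had 0%, 0.253%, 1.33% and 0%. The null values were all higher, with a log2 difference of 4.04 ± 0.897 (SE) and an adjusted p of 0.00831. The null hearts had 14.6% and 8.21%, the null carcasses 8.46% and 12.1%, and the null liver 3.28%. WT heart had 0.189% and 0%, the WT carcasses 0.695% and 0.884%, and the WT livers 0.695% and 0%. Of the 46 stretches covered in both null hearts and in no other null tissue, 14 lay in *Epha7*. This was the highest count of the 9 genes, not scaled to window length.

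*Epha3*, whose receptor is needed for the endocardial cushions of the heart, lies on chromosome 16 (chr16:63543364-63863984, minus strand) in a window of 324.621 kb. Its coverage was 3.94%, 3.42%, 3.97% and 6.25% in null hindbrain and 0.40%, 0.462%, 0.863% and 0.431% in WT hindbrain, so that it was the only one of the 9 with a peak in all 4 WT hindbrains. The log2 difference was 2.83 ± 0.278 (SE), with an adjusted p of 0.000127. In null heart the window was covered over 3.88% and 1.29%, in null carcass over 11.7% and 16.1% and in the null liver over 2.06%. The WT hearts had 0.216% and 0.277%, the WT carcasses 2.80% and 2.68%, and both WT livers 0.554%.

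The recurrent WT peak in *Epha3* lay on a simple repeat. A stretch of 1300 bases (chr16:63833101-63834400), in an intron 30.2 kb into the gene, was under peaks of at least 3 of the 4 WT hindbrains, touched by peaks in 7 of the 10 WT libraries and in the 4 null hindbrains, and free of peaks in the other 5 null libraries. It holds 1 CpG, and 76.3% of its overlapping words of 3 bases read GAG, AGG or GGA on the plus strand. The 150 bases shown, from its middle part (chr16:63833476-63833625, plus strand), contain no CpG and therefore no capitals.
Epha3 repeat: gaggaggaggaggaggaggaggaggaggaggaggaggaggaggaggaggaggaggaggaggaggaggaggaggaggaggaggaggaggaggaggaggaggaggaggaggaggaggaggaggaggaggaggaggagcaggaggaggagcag
Without peaks on this stretch, *Epha3* was covered over 0%, 0%, 0.40% and 0.0616% in the WT hindbrains and 3.73%, 3.23%, 3.79% and 5.91% in the null hindbrains, and the log2 difference was 4.62 (adjusted p = 0.000417). The larger difference came with fewer WT bases and almost the same null bases. Whether reads map uniquely to the repeat was not tested. This alternative was chosen after the values were seen.

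By counts not scaled to window length, *Epha3* held the most stretches seen only in null carcass, 41 of 151, before *Epha4* with 26. The longest of these over all 9 genes was 1200 bases long (chr16:63857901-63859100), in an intron 5.48 kb from the gene start, with 9 CpG and no WT peak. Its middle 300 bases (chr16:63858351-63858650, plus strand) are shown as a CpG-poor region under a peak, with 33% GC and 1 CpG in capitals.
Epha3 null carcass only: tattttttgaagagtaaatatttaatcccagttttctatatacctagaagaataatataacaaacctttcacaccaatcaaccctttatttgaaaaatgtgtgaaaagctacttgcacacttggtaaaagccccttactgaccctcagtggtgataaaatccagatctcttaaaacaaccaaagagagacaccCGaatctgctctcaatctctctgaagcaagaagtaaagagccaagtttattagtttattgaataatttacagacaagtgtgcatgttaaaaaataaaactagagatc

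*Epha5* and *Epha6*, receptors of the nervous system with very long introns, were the least covered of the 9 in null tissue. *Epha5* (chr5:84486816-84846407, minus strand) was covered over 0.770%, 1.79%, 1.32% and 2.56% in null hindbrain, and a WT hindbrain peak was present only in litter Q, at 0.0825%. Its log2 difference was 3.76 ± 0.393 (SE), with an adjusted p of 0.000180. In null heart it was 1.10% and 0.385%, in null carcass 2.48% and 3.25% and in the null liver 0.165%. WT heart had 0.110% and 0%, the WT carcasses 0.110% and 0.385%, and the WT livers 0%.

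*Epha6* (chr16:59653309-60605357, minus strand), the longest of the 9 with a window of 956.049 kb, was covered over 0.544%, 0.418%, 0.513% and 0.826% in null hindbrain. Litter Q alone had a WT hindbrain peak, at 0.0418%. The log2 difference was 2.60 ± 0.211 (SE), with an adjusted p of 4.33e-05. Null heart had 0.450% and 0.157%, null carcass 1.29% and 2.04% and the null liver 0.126%. The WT hearts had 0.136% and 0%, the WT carcasses 0.251% and 0.199%, and the WT livers 0.0941% and 0%.

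In *Epha6* a WT peak recurred where no null library had one. This stretch of 400 bases (chr16:60565701-60566100), in an intron 39.5 kb into the gene, was under peaks of at least 5 of the 10 WT libraries and of 0 of the 9 null libraries. Whether reads map uniquely there was not tested. Its middle 300 bases (chr16:60565751-60566050, plus strand) are shown with their 2 CpG in capitals. Of the 15 stretches with a WT peak and no null peak in the 9 windows, 8 were in *Epha6* and 5 in *Epha3*.
Epha6 WT only: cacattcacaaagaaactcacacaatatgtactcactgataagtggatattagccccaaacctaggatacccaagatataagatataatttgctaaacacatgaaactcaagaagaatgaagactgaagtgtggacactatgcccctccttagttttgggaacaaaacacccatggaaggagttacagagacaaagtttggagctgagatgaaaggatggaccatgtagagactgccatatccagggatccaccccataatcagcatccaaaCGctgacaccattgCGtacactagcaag

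*Ephb2*, whose receptor guides commissural axons, was the most covered of the 9 in null hindbrain, carcass and liver. It lies on chromosome 4 (chr4:136203454-136391903, minus strand) in a window of 192.45 kb. The null hindbrains had 14.6%, 14.4%, 16.2% and 17.9% and the WT hindbrains 0%, 0.675%, 3.48% and 0%. The log2 difference was 5.28 ± 1.22 (SE), with an adjusted p of 0.0101. Null heart had 37.5% and 13.1%, null carcass 32.3% and 39.4% and the null liver 19.4%. WT heart had 0.520% and 1.51%, the WT carcasses 5.46% and 5.35%, and the WT livers 0.831% and 0.364%.

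The stretch of *Ephb2* shared by the most libraries is 500 bases long (chr4:136280601-136281100), lies in an intron 111 kb into the gene, and was under peaks of at least 5 WT libraries and touched by all 9 null libraries. Its middle 300 bases (chr4:136280701-136281000, plus strand) hold 15 CpG, in capitals. *Ephb1* held the only other stretch under peaks of both genotypes in at least 5 WT libraries apart from the *Epha3* repeat (chr9:102091701-102092100), 165 kb into the gene in an intron, with a null peak in 8 of 9 libraries. Its middle 300 bases (chr9:102091751-102092050, plus strand) hold 11 CpG.
Ephb2 WT and null: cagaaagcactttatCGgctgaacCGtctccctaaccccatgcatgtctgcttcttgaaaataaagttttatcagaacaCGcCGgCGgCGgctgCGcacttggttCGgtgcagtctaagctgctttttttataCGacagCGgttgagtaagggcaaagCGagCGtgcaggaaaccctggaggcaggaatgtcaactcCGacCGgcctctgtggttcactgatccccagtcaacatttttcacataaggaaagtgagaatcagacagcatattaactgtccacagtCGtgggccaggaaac
Ephb1 WT and null: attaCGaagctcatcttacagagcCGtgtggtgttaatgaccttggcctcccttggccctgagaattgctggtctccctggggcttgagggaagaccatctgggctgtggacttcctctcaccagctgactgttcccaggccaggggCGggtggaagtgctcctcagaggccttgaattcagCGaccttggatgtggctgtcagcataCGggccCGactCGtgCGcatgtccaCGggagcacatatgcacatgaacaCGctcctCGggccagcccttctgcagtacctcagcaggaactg

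*Ephb1*, whose receptor steers retinal axons at the optic chiasm, lies on chromosome 9 (chr9:101824458-102257023, minus strand). Its window was covered over 6.12%, 5.11%, 7.67% and 9.21% in null hindbrain, and over 0%, 0.985%, 1.35% and 0% in WT hindbrain. The log2 difference was 4.30 ± 1.04 (SE), with an adjusted p of 0.0124, which became 0.0501 with the litter as a replicate block. Null heart had 8.46% and 3.40%, null carcass 12.6% and 16.5% and the null liver 4.47%. The WT hearts had 0% and 0.137%, the WT carcasses 2.18% and 1.19%, and the WT livers 0.344% and 0%.

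A stretch of 600 bases in *Ephb1* (chr9:102249601-102250200), 7.12 kb from the gene start, was the longest of the 9 stretches covered in all 4 null hindbrains and in no other null tissue. It also lies inside Gm17708, a lincRNA gene on the opposite strand. Its middle 300 bases (chr9:102249751-102250050, plus strand) hold 4 CpG.
Ephb1 null hindbrain only: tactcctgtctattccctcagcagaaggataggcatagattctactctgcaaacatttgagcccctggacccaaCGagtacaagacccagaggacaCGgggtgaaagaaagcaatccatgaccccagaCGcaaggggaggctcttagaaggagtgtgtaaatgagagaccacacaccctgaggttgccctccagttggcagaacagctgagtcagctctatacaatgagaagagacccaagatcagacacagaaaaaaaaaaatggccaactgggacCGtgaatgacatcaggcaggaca

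*Ephb3*, whose receptor acts with EphB2 in axon guidance and palate closure, is the shortest of the 9 (chr16:21204828-21223378, plus strand, a window of 22.551 kb). It was listed at 0 in all 4 WT hindbrains and covered over 7.98%, 7.54%, 6.21% and 7.10% in null hindbrain, each with 2 peaks. The adjusted p was 2.42e-09, and no fold is given against a group at 0, whose lack of spread also narrows the error of the test. The null hearts had 43.0% and 24.8%, the null carcasses 13.7% and 20.8% and the null liver 17.3%. WT heart had 3.55% and 0%, the WT carcasses 3.10% and 3.99%, and the WT livers 4.88% and 3.99%, each WT value above 0 being a single peak.

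Both null hearts shared a stretch of 1900 bases in *Ephb3* (chr16:21214101-21216000), over exon and intron 10.2 kb into the gene, that includes the whole of an internal CpG island of 837 bases. This stretch was chosen after its values were seen. It was touched by peaks in the null liver, both null carcasses, 1 WT heart and both WT livers, and in 0 of the 8 hindbrain libraries. The 300 bases shown (chr16:21215403-21215702, plus strand) lie in its intronic part, beyond the island, and hold 9 CpG. Peaks of all 9 null libraries met in a different intron stretch of the gene, of 700 bases, 5.42 kb from the gene start (chr16:21209901-21210600), where both WT carcasses had a peak as well.
Ephb3 heart, liver and carcass: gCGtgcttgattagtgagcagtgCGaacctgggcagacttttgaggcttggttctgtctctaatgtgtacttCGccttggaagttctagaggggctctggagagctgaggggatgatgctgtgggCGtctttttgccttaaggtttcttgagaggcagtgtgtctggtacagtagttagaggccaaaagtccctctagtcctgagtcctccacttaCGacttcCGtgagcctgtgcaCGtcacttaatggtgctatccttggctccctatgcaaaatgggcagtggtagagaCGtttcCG

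*Ephb4*, whose receptor marks venous endothelium and binds ephrin-B2 on arteries, lies on chromosome 5 (chr5:137791337-137819897, plus strand, a window of 32.561 kb). The null hindbrains had 12.8%, 7.26%, 7.57% and 7.99%, with litter A above the others, and litter Q alone had a WT peak, at 2.46%. The log2 difference was 5.28 ± 1.15 (SE), with an adjusted p of 0.00766. The null hearts had 21.2% and 6.76%, both null carcasses 8.60% and the null liver 9.21%. Both WT hearts were listed at 0, the WT carcasses at 0% and 1.54% and the WT livers at 1.54% and 0%. The end of the window overlaps *Zan*, a gene on the opposite strand, by 2033 bases.

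In heart, 7 of the 9 genes rose in the null embryos by the same test, where 51.2% of all genes were called higher and 0.148% lower. Fitted on genes with windows of at least 50 kb alone, it was 87.9%, and 6 of the 7 such Eph receptor genes. The largest difference with WT peaks present was that of *Epha7*, a log2 difference of 6.02 ± 0.622 (SE, adjusted p = 0.00146), followed by *Epha4* at 6.01 ± 0.963 (adjusted p = 0.00683). *Ephb4* rose from WT hearts at 0 (adjusted p = 0.0173). *Epha3*, *Epha5*, *Ephb1* and *Ephb2* rose with log2 differences of 2.77, 2.40, 5.15 and 4.48. *Epha6*, at 1.29 ± 0.602 (adjusted p = 0.162, with 0.67 without WT heart replicate 2 and 0.74 without null heart replicate 1), and *Ephb3*, at 5.76 ± 1.79 (adjusted p = 0.0539), did not pass. The median over all genes was 4.50. With a pseudocount of 1 the 9 differences were 0.28 to 3.98 and the median over all genes 2.12, and *Ephb3* was called (adjusted p = 0.0151). *Ephb3* was also called when only genes with a peak were tested (adjusted p = 0.0279) and with 10 kb on each side of the gene (adjusted p = 0.00296). *Epha5* was lost with that pseudocount (0.69, adjusted p = 0.0858), with the gene body alone (adjusted p = 0.0554) and on peak midpoints (adjusted p = 0.0731). Relative to the genome none of the 9 was called higher, against 36.8% of all genes, and *Epha3* was called lower in null heart, against 1.27%, by a log2 difference of -1.99 (adjusted p = 0.00164). That call was lost without the peaks on the *Epha3* repeat, of which WT heart replicate 2 has 1 (-1.0, adjusted p = 0.256). Each group holds 2 libraries. Without either WT heart the calls of *Epha3*, *Epha5* and *Ephb4* were lost (adjusted p of 0.0561 to 0.195) and *Ephb3* stood at 3.17 without replicate 2 (adjusted p = 0.0154); without replicate 1 the remaining WT heart is at 0 for *Ephb3*, and no fold or call is given. Without null heart replicate 1, *Epha5* (adjusted p = 0.201) and *Ephb4* (adjusted p = 0.0987) were lost, and with the litter as a replicate block *Epha5* was lost (adjusted p = 0.0912).

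In carcass, 6 of the 9 genes rose, with 33.3% of all genes called higher and 0.264% lower. Fitted among genes with windows of at least 50 kb, 7 of 7 were called, against 76.7%. *Epha7* had a log2 difference of 3.53 ± 0.622 (SE, adjusted p = 0.0145), and *Epha5*, *Ephb1*, *Ephb2*, *Epha6* and *Epha3* had 3.20, 3.08, 2.70, 2.41 and 2.28. *Epha4*, at 3.60 ± 0.963 (adjusted p = 0.0505), *Ephb3*, at 2.23 ± 1.79 (adjusted p = 0.449), and *Ephb4*, at 4.43 ± 1.47 (adjusted p = 0.0874), did not pass. *Ephb4* stood at 2.41 without WT carcass replicate 1, and without replicate 2 the remaining WT carcass is at 0, so that no fold is given. With a pseudocount of 1 the 9 differences were 1.11 to 3.16, the median over all genes was 1.41, and *Epha4* (adjusted p = 0.0102) and *Ephb4* (adjusted p = 0.0437) were called. With peaks of at least 600 bases *Epha3* (adjusted p = 0.0621) and *Ephb2* (adjusted p = 0.267) were lost and *Epha4* and *Ephb4* were called, and with the gene body alone *Ephb2* was lost (adjusted p = 0.0542). On peak midpoints 0 of the 9 were called, against 26.4% of all genes, and with 10 kb on each side of the gene 9 of 9, against 44.8%. All null values lay above all WT values at the 9 genes in both tissues, as at 58.2% of all genes in heart and 54.3% in carcass, or 89.9% and 89.5% of those with windows of at least 50 kb. Relative to the genome none of the 9 was called in carcass, against 20% of all genes called higher. With the litter as a replicate block 1 of the 9 was called (*Epha7*, adjusted p = 0.0342), against 28.1% of all genes, and with any 1 carcass library left out 0 to 2 were called (*Epha5*, and *Ephb4* against the WT carcass at 0), against 23.2% to 30.0% of all genes. The effect of genotype did not pass a test for a difference between heart and carcass at any of the 9 genes, the lowest adjusted p being 0.183 for *Epha7*, where 14.2% of all genes had a larger effect in heart and 2.48% a smaller one. Both tissues came from the same 4 embryos, and with the embryo as a replicate block, a fit added after seeing the data, it was 0 of 9 again, against 5.93% and 1.93%.

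*Epha5* and *Epha6* were the least covered in every null tissue, and the most covered gene differed between tissues. Relative coverage in null hindbrain was highest at *Ephb2* (4.74 ± 0.559, SD, n = 4), followed by *Epha4* (2.98 ± 0.267) and *Ephb4* (2.65 ± 0.659), whose values overlapped. *Ephb3* (2.18 ± 0.463) and *Ephb1* (2.07 ± 0.350) overlapped with *Ephb4* and with each other, and *Epha3* (1.30 ± 0.280) and *Epha7* (1.30 ± 0.237) were alike. *Epha5* (0.489 ± 0.234) and *Epha6* (0.170 ± 0.0373) lay below the genome's level in every null library. Null heart was led by *Ephb3* (6.07 ± 1.07, SD, n = 2) and null carcass by *Ephb2* (5.61 ± 0.554, n = 2). In null liver *Ephb2* stood at 6.39 and *Ephb3* at 5.70, with no replicate.

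**Figure D2:**
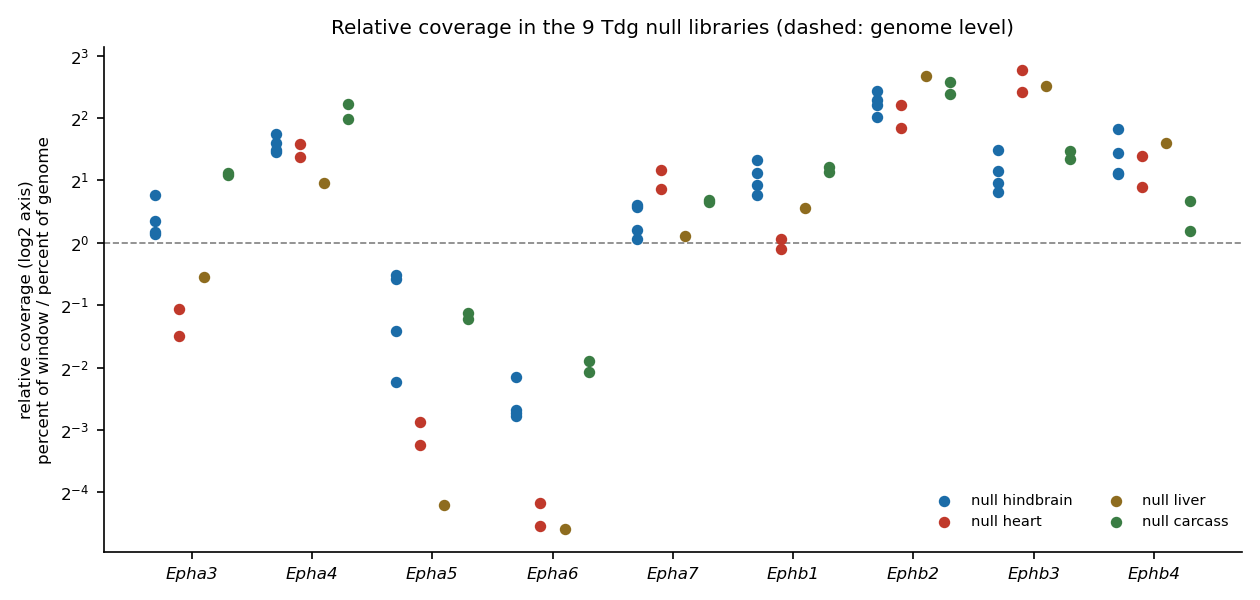
Relative coverage (percent of the window under peaks over percent of the genome under peaks, log2 axis) of the 9 genes in the 9 *Tdg* null libraries, a point for each library coloured by tissue, with the genome's level dashed. *Epha5* and *Epha6* lie below 1 in every library, and *Epha3* lies above 1 in hindbrain and carcass and below 1 in heart and liver.

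Between null hindbrain and null heart, *Epha3*, *Epha6* and *Ephb1* were higher in hindbrain and *Ephb3* was higher in heart, by limma on log2(relative coverage + 0.1). *Epha3* was at 1.10, 1.28, 1.13 and 1.70 in the hindbrains and at 0.480 and 0.355 in the hearts, a log2 difference of 1.43 ± 0.197 (SE, adjusted p = 0.00766), and at 1.36 without the peaks on its repeat. *Ephb1* was at 1.70, 1.91, 2.18 and 2.51 against 1.05 and 0.933, a difference of 0.99 ± 0.156 (adjusted p = 0.0120). *Epha6* was at 0.151, 0.156, 0.146 and 0.225 against 0.0556 and 0.0431, a difference of 0.84 ± 0.130 (adjusted p = 0.0111). *Ephb3* was at 2.22, 2.82, 1.76 and 1.93 against 5.32 and 6.82, a difference of -1.44 ± 0.206 (adjusted p = 0.00859). Across all genes 6.45% were called higher in hindbrain and 11.3% higher in heart. Fitted on genes with windows of at least 50 kb alone, it was 16.6% and 30%. That fit called 4 and 1 of the 7 long Eph receptor genes, including calls that the fit on all genes did not make. In the fit on all genes, *Epha5* (difference 1.32 ± 0.414, adjusted p = 0.0918) and *Epha7* (-0.62 ± 0.179, adjusted p = 0.0751) had groups that did not overlap and did not pass, and *Epha4*, *Ephb2* and *Ephb4* overlapped. Groups without overlap were found at 4 genes higher in hindbrain and 2 higher in heart, against 13.9% and 24.8% of all genes. Without null heart replicate 2, only *Epha3* was called, where 4.59% of all genes were called higher in hindbrain and 8.68% lower. On the percent of the window, not scaled to the genome, none was called higher in hindbrain, and *Ephb3* (adjusted p = 0.00688) and *Epha7* (adjusted p = 0.0447) were called higher in heart, where 1.89% of all genes were higher in hindbrain and 12.3% in heart.

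Between null hindbrain and null carcass none of the 9 genes passed this test. Across all genes 2.66% were called higher in hindbrain and 1.47% higher in carcass. Fitted on genes with windows of at least 50 kb alone, it was 4.08% and 2.71%. At an unadjusted p under 0.05, 3 genes were lower in hindbrain (*Epha3*, *Epha4* and *Epha6*), against 4.92% of all genes, and 1 was higher (*Ephb4*), against 12%. Leaving out the null hindbrain of litter Z brought 2 calls, of *Epha3* (adjusted p = 0.0496) and *Epha6* (adjusted p = 0.0238), both lower in hindbrain, where 1.62% of all genes were called lower. *Ephb4* was at 3.56, 2.71, 2.15 and 2.18 in the hindbrains and at 1.60 and 1.14 in the carcasses, a difference of 0.89 ± 0.274 (adjusted p = 0.180).

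Between null heart and null carcass, which came from the same 2 embryos, *Epha3*, *Epha6*, *Ephb1* and *Epha4* were lower in heart and *Ephb3* was higher. The differences were -2.13 ± 0.228 (SE, adjusted p = 0.00327) for *Epha3*, with carcass at 2.17 and 2.13, and -1.25 ± 0.150 (adjusted p = 0.00520) for *Epha6*, with carcass at 0.239 and 0.270. *Ephb1* had -1.12 ± 0.180 (adjusted p = 0.0139), with carcass at 2.33 and 2.19. *Epha4* had -0.61 ± 0.132 (adjusted p = 0.0366), from 2.99 and 2.59 in heart and 4.67 and 3.94 in carcass, and *Ephb3* had 1.15 ± 0.238 (adjusted p = 0.0310), with carcass at 2.55 and 2.76. Across all genes 11.4% were called higher and 4.37% lower in heart. Fitted on genes with windows of at least 50 kb alone, it was 28.5% and 14.9%, where 0 and 4 of the 7 were called. *Epha4* was lost when only genes with a peak were tested (adjusted p = 0.105), with peaks of at least 600 bases (adjusted p = 0.0996) and on peak midpoints (adjusted p = 0.244), and *Ephb3* with the gene body alone (adjusted p = 0.0515), with 600 bases (adjusted p = 0.0551) and on midpoints (adjusted p = 0.160). *Epha6* was lost with 600 bases (adjusted p = 0.0939). Without null heart replicate 2 or either null carcass *Ephb1* (adjusted p of 0.0547 to 0.0705), *Epha4* (0.0537 to 0.149) and *Ephb3* (0.101 to 0.130) were lost, and without scaling to the genome all 5 were (0.0603 to 0.388). With the litter pair as a replicate block on heart and carcass alone, 0 of the 9 and 0 of all genes were called, and the adjusted p of the 5 genes lay at 0.127 to 0.178. The 3 tissue comparisons share libraries and are not independent of each other.

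**Figure D3:**
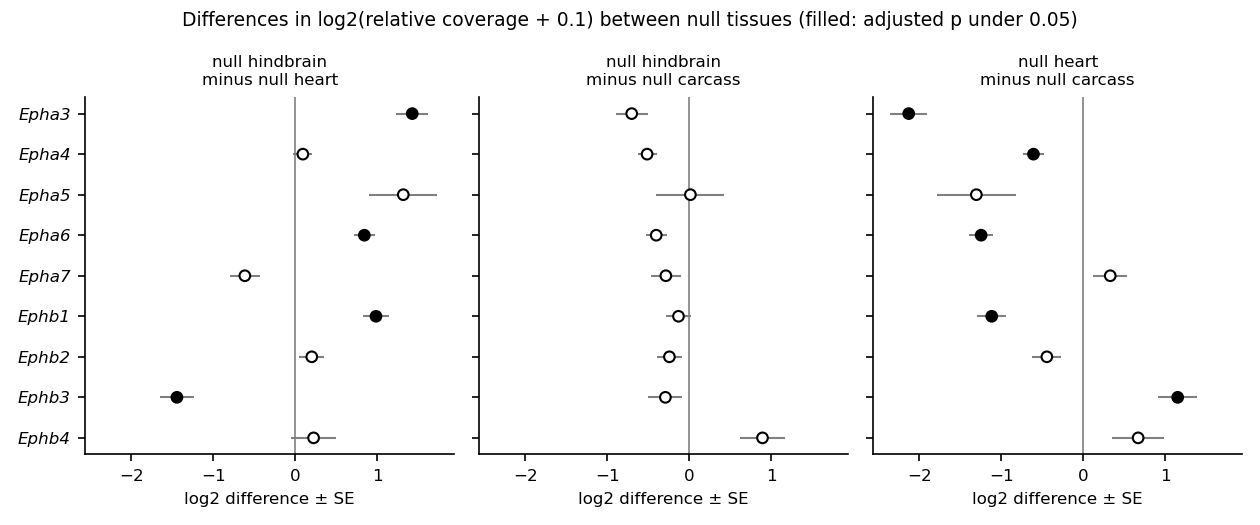
Differences in log2(relative coverage + 0.1) between null tissues (horizontal axis, with SE) for the 9 genes, filled where the adjusted p was under 0.05. *Epha3*, *Epha6* and *Ephb1* lie to the right in the first panel and to the left in the third, *Ephb3* lies the opposite way, and no point is filled in the middle panel.

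The peaks met at recurring places within the genes. In the 9 windows, 78 stretches (53.9 kb) were under peaks of all 4 null hindbrains, 111 (79.9 kb) under both null hearts and 246 (206 kb) under both null carcasses. Of the 78 hindbrain stretches, 72 (92.3%) touched a peak of a null carcass, 44 (56.4%) of a null heart and 25 (32.1%) of the null liver. Of the 246 carcass stretches, 154 (62.6%) touched a null hindbrain peak and 119 (48.4%) a null heart peak. Of the 111 heart stretches, 77 (69.4%) touched a carcass peak and 54 (48.6%) a hindbrain peak. The tissues differ in their number of libraries and peaks, and no test of these shares was made.

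Only 9 stretches (2.2 kb) were covered in all null hindbrains and in no other null tissue, 1 of them on the *Epha3* repeat, against 46 (17.9 kb) for heart and 151 (46.5 kb) for carcass, which each needed 2 libraries rather than 4. A further 46 stretches (16.1 kb) were covered in all null hindbrains and both null carcasses and in neither heart nor liver. By counts not scaled to window length, *Ephb1* (13) and *Epha3* (9) held the most of these stretches. The longest of these lay in *Ephb2* (chr4:136373601-136374800, 1200 bases) and *Epha3* (chr16:63742301-63743400, 1100 bases). Peaks of all 9 null libraries met in 14 stretches (8.5 kb) in 7 of the 9 genes, all of them in introns, and *Epha5* and *Epha6* had none.

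The longest stretches of a tissue were mostly in *Ephb2*. In null hindbrain they were chr4:136327401-136329800 (2400 bases, across a coding exon) and chr4:136335101-136337000 (1900 bases, intron), followed by chr1:77507101-77508600 in *Epha4* (1500 bases, across a coding exon near the gene start). In null heart they were chr4:136361901-136364000 (2100 bases) and chr4:136285901-136287900 (2000 bases) in introns of *Ephb2* and chr1:77380001-77382000 in *Epha4* (2000 bases, across a coding exon). In null carcass they were chr4:136387901-136390800 (2900 bases) and chr4:136372301-136374900 (2600 bases) in introns of *Ephb2* and chr1:77501501-77504200 in *Epha4* (2700 bases), which includes 664 coding bases and a CpG island of 544 bases.

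**Figure D4:**
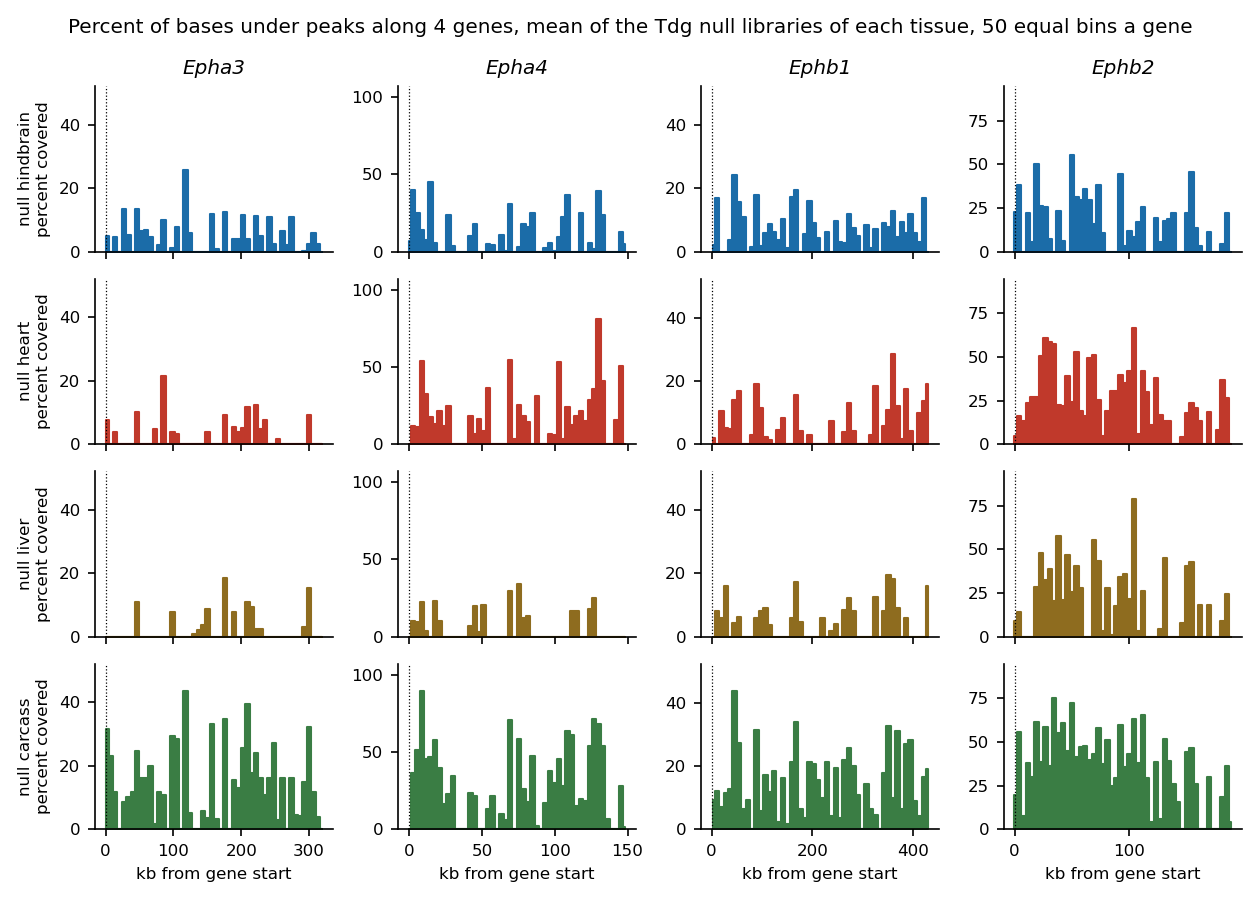
Percent of bases under peaks along *Epha3*, *Epha4*, *Ephb1* and *Ephb2* (horizontal axis in kb from the gene start, dotted), as the mean of the null libraries of each tissue in 50 equal bins a gene, with 1 vertical scale for each gene. Coverage is spread along the whole of each gene, and *Epha3* is covered densely in carcass and in few places in heart and liver.

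WT peaks were set beside the peaks of the null littermate. In hindbrain 2 of 2, 13 of 13, 28 of 36 and 2 of 2 WT peaks in the 9 windows were overlapped by a null peak of the same litter, and in carcass 48 of 65 and 49 of 55. In heart 4 of 11 and 4 of 9 were, and in the liver of pair a 14 of 21. The WT liver of pair b had 4 peaks, and its null littermate is the library set apart, with none. Null libraries cover more of the genome, so that some overlap follows from their extent alone.

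No WT library had a peak within 1 kb of the start of any of the 9 genes, where 0.174% to 3.33% of all coding genes had one. Null peaks lay there at *Epha3* (2 of 4 hindbrains, 1 of 2 hearts, 2 of 2 carcasses), *Epha5* (2 hindbrains, 2 carcasses), *Epha7* (1 carcass), *Ephb2* (1 hindbrain) and *Ephb3* (1 heart, 1 carcass), and at none of *Epha4*, *Epha6*, *Ephb1* and *Ephb4*. In single null libraries 0 to 4 of the 9 starts had a peak, where 13.5% to 34.1% of all coding genes did, with no test of the difference. Each of the 9 starts has CpG island bases within 1 kb, from 659 to 1947 of them, and the start of *Epha6* lies between 2 islands. In the first kb downstream of the start 0% to 2.40% of the bases were under null peaks, where all coding genes had 3.82% to 11.2%. In the next kb it was 0% to 18.7%, with 0% in null heart replicate 2 alone, where all coding genes had 6.20% to 17.3%.

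CpG was denser under peaks than beside them. The null libraries had 1.46 to 1.91 CpG per 100 bases under peaks in the 9 windows and 0.719 to 0.771 outside. Single windows hold from 0.551 (*Epha5*) to 2.04 (*Ephb3*) CpG per 100 bases, so this contrast mixes differences between genes with those within them. It was not split by gene. WT hindbrain of litters A and Z, whose few peaks lay largely on the *Epha3* repeat, had 0.611 and 0.286 under peaks, and the other WT libraries 1.94 to 2.53. Exons make up 2.55% of the windows. Exons made up 8.30% and 9.01% of the bases under peaks in null heart, 5.38% in the null liver and 2.83% to 3.60% in null hindbrain and carcass. In WT libraries, with far fewer bases under peaks, they made up 17.7% and 29.7% in liver and 14.9% and 3.92% in heart. WT carcass had 3.24% and 3.10%, and WT hindbrain 0% to 0.835%. In *Ephb3* both null hearts had peaks on 6 of 15 exons, all 4 null hindbrains on 0 and both null carcasses on 1. The hearts also had more than the carcasses at *Epha7* (4 against 3), *Ephb1* (2 against 1) and *Ephb4* (1 against 0). The carcasses had more than the hearts at *Epha3* (5 against 2), *Epha4* (9 against 4) and *Ephb2* (4 against 2).

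**Figure D5:**
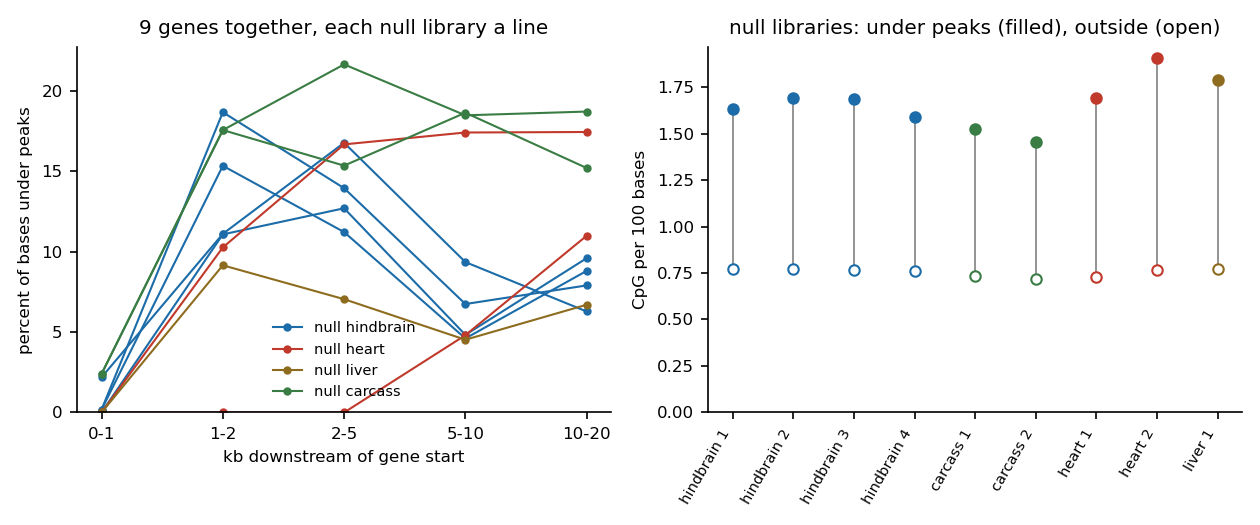
Left, percent of bases under peaks by distance downstream of the gene start for the 9 genes together, a line for each null library. Right, CpG per 100 bases under peaks (filled) and outside peaks (open) in the same libraries. Coverage is at most 2.40% in the first kb, and CpG over the 9 windows together is denser under peaks in all 9 null libraries.

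The other genes of the pathway were counted by the same test. In hindbrain 5 of 5 other receptors, 2 of 4 ephrin-A ligands, 3 of 3 ephrin-B ligands and 22 of 24 effectors and partners rose, beside the 56.1% of all genes. The largest differences were those of the ligand genes *Efna2*, *Efna4* and *Efnb2*, with means of 22.3%, 16.8% and 14.3% in null hindbrain and all WT hindbrains listed at 0. In heart 4 of 5, 3 of 4, 3 of 3 and 23 of 24 of the same lists rose, beside 51.2% of all genes, led by *Efna1*, *Efnb2* and *Nck2*, an adaptor protein, at 31.2%, 27.4% and 25.5% with WT at 0. In carcass 1 of 5, 3 of 4, 2 of 3 and 13 of 24 rose, beside 33.3% of all genes, led by *Efnb3*, *Efna2* and *Efna1* at 31.7%, 19.3% and 12.6% with WT at 0. None of these genes was called lower in null tissue. In the fits on genes with windows of at least 50 kb alone, 90.8%, 87.9% and 76.7% were called higher in hindbrain, heart and carcass. The pathway genes are not split by window length here. *Arhgef15* was listed at 0 in all hindbrain libraries and *Ephb6* at 0 in all heart libraries.

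Between null tissues, of the 24 effectors and partners, 1 was higher in hindbrain than in heart and 8 were lower (6.45% and 11.3% of all genes), and 6 were higher and 1 lower in heart than in carcass (11.4% and 4.37% of all genes). Null heart and carcass came from the same embryos, and with the litter pair as a replicate block none of the calls between them held. *Ngef*, which encodes ephexin, a protein that acts downstream of EphA receptors, had a relative coverage of 1.90 in null hindbrain, 0.338 in null heart and 1.40 in null carcass (hindbrain over heart, log2 difference 2.31 ± 0.336, adjusted p = 0.00923), and it was lower in heart than in carcass by a log2 difference of -1.90 (adjusted p = 0.0301). *Epha10*, a receptor without kinase activity (2.25 ± 0.459, adjusted p = 0.0273), and *Efna2* (1.85 ± 0.308, adjusted p = 0.0141) were also higher in hindbrain than in heart. *Arhgef15*, a relative of *Ngef* known from vessels, was listed at 0 in null hindbrain and carcass and had a mean of 2.42 in null heart. *Sipa1l1*, a Rap regulator, and *Abl1*, a tyrosine kinase, were lower in hindbrain than in heart by log2 differences of -0.96 and -0.94. *Epha1*, at 5.56 in heart and 1.14 in carcass, and the protease gene *Adam10*, at 0.654 and 0.144, were higher in heart than in carcass, and *Adam10* was the only one of these genes to differ between hindbrain and carcass (1.34 ± 0.202, adjusted p = 0.0280).

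Over the 9 null libraries, the gene whose log2 relative coverage was most like each receptor's, among 7921 genes with a peak in all 9, was *Pcdh15* for *Epha3* (Pearson's r = 0.990), *Jag1* for *Epha4* (0.934), *Myo16* for *Epha5* (0.978), *Fam190a* for *Epha6* (0.986) and *Srrt* for *Epha7* (0.948). It was *Lingo2* for *Ephb1* (0.995), *Lingo1* for *Ephb2* (0.978), *Htra1* for *Ephb3* (0.984) and *Mael* for *Ephb4* (0.952). These are the highest of many correlations across libraries that share tissues and embryos, and they are given as a description.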

How the data were processed

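The processed files used here hold only peak positions, an "other" kind of value: the start and end of each peak, without counts, heights or scores. According to the paper, raw sequencing files can be found beside them, and those were not used here. The authors trimmed reads, aligned them to NCBIM37 (mm9) with Bowtie2 and called peaks with MACS in each pull-down on its own; Trim Galore, Bowtie2 and MACS are named in the submitters' processing notes. Positions are 1-based on a grid of 100 bases. Each library's depth cannot be read from the peak files, so no interval for counting error was made.

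Windows came from the GENCODE annotation of NCBIM37. Coverage was summed with Python 3.11.15 and pandas 2.3.3. All 22367 coding genes were fitted with limma 3.58.1 (R 4.3.3), with a pseudocount of 0.1, Benjamini-Hochberg adjustment over all genes and a threshold of 0.05. Genotypes were compared on the percent of the window, hindbrain on its own and heart with carcass in 1 fit, and null tissues on relative coverage in 1 fit of 3 groups. Liver was described only, since 1 null library remained. The fit was also run on simulated data, with no result given here. CpG islands are runs of at least 500 bases with at least 50% GC and observed over expected CpG above 0.6. Sequences are from the NCBIM37 genome.

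Embryos are separate animals. The labels name a litter for every embryo (A, O, Q, Z, and pair a and pair b for the other tissues), so genotypes are paired by litter. The embryos of the other tissues all carry the letter i in their names, so whether pair a and pair b are separate litters is unsure. Deviations of littermates from their group means correlated at 0.0420, 0.0127, -0.0156 and -0.0373 in hindbrain, -0.0289 in heart and -0.0570 in carcass. The main fits had no litter block, which was an alternative, beside other pseudocounts, filters, windows, peak lengths, midpoints and left-out libraries.

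The 9 genes, the pathway and marker lists and the tests were chosen with earlier results of these data known. *Efna5* has more than 1 match in the annotation and was dropped. Genes named beyond the 9 are, per comparison, up to 3 in each direction with the largest difference among called pathway genes, and the most similar gene of each member. Stretches named are the 3 longest of a kind and those that recur in WT libraries. The *Ephb3* stretches of 1900 and 700 bases were also named, the first chosen after its values were seen. Matched transcript data were not used here.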

Additional observations from a re-analysis of the deposited data

Results flagged for a closer look

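In groups of 4 hindbrains, a single library lay far from the other 3 in 6 of 17 gene and genotype groups with any spread. About 1 in 20 such groups would be marked by chance if values were normally spread without ties, and the genes share libraries. In 5 of the 6 marked groups it was the WT hindbrain of litter Q, which had the most peaks of the WT hindbrains (21606). Its values were *Epha3* at 0.863% of the window, *Epha4* at 2.24%, *Epha5* at 0.0825%, *Epha6* at 0.0418% and *Ephb4* at 2.46%. For *Epha5*, *Epha6* and *Ephb4* the other 3 WT hindbrains were at 0, where any single peak is marked. The share of 1 in 20 does not apply to those groups. The other marked library was the null hindbrain of litter A for *Ephb4*, at 12.8%. The part of library depth in these values was not tested.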

How the results depend on the processing

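All alternatives kept the 9 higher calls in hindbrain null against WT except a filter on windows of at least 50 kb (7 of the 7 genes measured), the replicate block (8, with *Ephb1* lost), relative coverage (3) and the exact permutation test with adjustment over all genes (0, adjusted p = 0.0585, from the smallest p that 4 against 4 allow, 0.0286). Under relative coverage the genes called higher fell to 0 in heart and 0 in carcass, with 1 called lower in heart, and these differences turned: *Epha3* -1.89 in hindbrain; *Epha3* -1.99, *Epha5* -0.47, *Epha6* -1.17 and *Ephb2* -0.77 in heart; *Epha3* -0.53, *Epha6* -0.014, *Ephb2* -0.15 and *Ephb3* -0.59 in carcass. With the *Epha3* repeat peaks also left out, a choice made after seeing the data, the counts were 3 in hindbrain and 0 in heart, with 0 lower, and *Epha3* stood at 1.85 in hindbrain and -1.0 in heart. In carcass 8 were called with a pseudocount of 1 (37.8% of all genes), 0 on peak midpoints (26.4%) and 1 with the replicate block, and 0 to 2 with a library left out. In hindbrain against heart, 1 was called higher with peaks of at least 600 bases, 0 lower on midpoints, and 0 higher and 2 lower without scaling; leaving out a library gave 1 to 4 higher and 0 to 1 lower. Turned there were *Epha4* (-0.31), *Ephb2* (-0.51) and *Ephb4* (-0.042) on midpoints and the same genes (-0.60, -0.49 and -0.46) without scaling; left-out libraries gave -0.0086 to 0.20 for *Epha4* and -0.013 to 0.46 for *Ephb4*. In hindbrain against carcass, leaving out a library gave 0 to 2 lower calls, and *Epha5* turned to -0.0052 (600 bases), -0.029 (gene body), -0.076 (midpoints) and -0.90 (not scaled), with -0.16 to 0.28 over left-out libraries, and *Ephb3* to 0.14 on midpoints. In heart against carcass, the 1 higher call became 0 with windows of at least 50 kb (which leave out *Ephb3*), peaks of at least 600 bases, the gene body, midpoints, no scaling and the replicate block, the 4 lower calls became 3 with the peak filter, 3 on midpoints, 2 with 600 bases, 0 without scaling and 0 with the block, and left-out libraries gave 0 to 1 and 2 to 4. With peaks of at least 600 bases the 9 windows were covered over 3.41% in null hindbrain, 0.0947% in WT heart, 0.841% in WT carcass and 2.86% in null liver; with the library set apart, null liver fell from 3.27% to 1.64%. Except where an alternative tests fewer genes, the cause was not tested. Where a left-out library leaves 1 in a group, that library is assumed to vary like the others.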
